A study of Mus musculus with 10 samples.

Results

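Immediate early genes are transcribed within minutes of a stimulus, from promoters that stand ready for signals carried by calcium, cyclic AMP and MAP kinases, and their mRNAs are short-lived. In olfactory neurons odour and airflow drive them, and in any tissue they also respond to stress and to dissection. The 10 genes described here were taken by symbol from a table of 24421 genes, and all 10 were found: Fos, Fosb, Jun and Junb, which code for subunits of the transcription factor AP-1, Egr1, Nr4a1 and Npas4, which code for other transcription factors, and Arc, Dusp1 and Ier2. The list is one of well-known immediate early genes, and no threshold on measured values entered it. All 10 were among the 16050 genes that the authors tested.

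The RNA came from olfactory epithelium, the sensory lining of the nose, of untreated C57BL/6 mice aged 6 months. There were 6 libraries of genotype Apoe4 and 4 of genotype Apoe3, names of human alleles of the lipid carrier apolipoprotein E, and the labels give no other difference between the animals. Genotype is thus the only comparison the design makes, and the question put to these genes is whether their mRNA differed between Apoe4 and Apoe3. The submitters' labels do not say how the alleles were introduced, or when in the day the tissue was taken. The one deposited table holds a mean over all 10 libraries and a fold change per gene, so a level in each library is not given here.

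What the promoters share was read from RefSeq windows of GRCm38.p6, 250 bases before the start of transcription. Windows were used for 7 of the 10: Fos, Fosb, Jun, Junb, Npas4, Nr4a1 and Dusp1. That is too few to stand for the set, so a comparison over all 10 genes is void and the counts describe these 7. The half-site TGACG, in either direction, is bound by CREB, the factor through which calcium and cyclic AMP reach these genes. It was found in 6 of the 7 windows, all but that of Jun, against 17.8% of the 32851 windows in the genome-wide table and 25.8% of those that also hold the GC box GGGCGG. The GC box was in 6 of the 7, all but Junb, against 32.7% of windows. Fos alone had TATAAA (12.4% of windows). None of the 7 held a CArG box, the site of serum response factor, found in 1.47% of windows, or the AP-1 site TGANTCA, found in 6.75%. A match is only a match of letters. Bases further than 250 from the start were not searched, so the lack of a match does not show that a gene lacks the site. Stretches with the half-sites are shown for 5 genes, to show the letters around them, with TGACG or its complement in capitals. They are chr12:85473790-85473889 for Fos (plus strand), chr7:19310089-19310118 for Fosb (minus strand), chr19:4990129-4990158 for Npas4 (minus strand), chr15:101266596-101266845 for Nr4a1 (plus strand) and chr17:26508573-26508672 for Dusp1 (minus strand).
Fos: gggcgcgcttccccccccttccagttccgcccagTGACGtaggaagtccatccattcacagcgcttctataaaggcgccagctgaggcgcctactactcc
Fosb: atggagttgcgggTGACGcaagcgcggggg
Npas4: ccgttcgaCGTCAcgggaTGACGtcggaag
Nr4a1: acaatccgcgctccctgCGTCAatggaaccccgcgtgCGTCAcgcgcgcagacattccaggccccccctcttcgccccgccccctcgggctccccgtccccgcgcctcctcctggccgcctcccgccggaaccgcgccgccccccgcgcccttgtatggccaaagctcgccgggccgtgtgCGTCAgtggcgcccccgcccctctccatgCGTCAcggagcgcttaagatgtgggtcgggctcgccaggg
Dusp1: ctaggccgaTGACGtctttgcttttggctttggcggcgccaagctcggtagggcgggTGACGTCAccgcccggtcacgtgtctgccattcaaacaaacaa
Counted from the start of transcription, with -1 the base before it, half-sites begin at -129 and -66 in the Fos window, the first of them outside the stretch shown, and 1 begins at -60 in Fosb. The Nr4a1 window holds 4, the nearest from -40 to -36. In Dusp1 the half-sites at -143 and -140 overlap on opposite strands and make the full palindrome.

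Depth was about 14900000 to 20100000 assigned reads per library. Omp, the marker of mature olfactory neurons, had a mean normalized count (reads after correction for depth) of 113676 in the authors' deposited table, and Cyp2g1, a marker of supporting cells, one of 63585. Sex-linked genes differed between the groups in the authors' deposited table. There Ddx3y, on the Y chromosome, had a log2 fold change of -3.50 (DESeq2 adjusted p = 1.29e-243). Xist, the RNA that silences an X chromosome, had one of 6.41 with no p-value. The labels give no sex, and whether all animals of a group were of 1 sex was not tested. No member lies on X or Y, and sex and genotype cannot be told apart in any value below. Mouse Apoe itself stood at -0.16 in the authors' deposited table (DESeq2 adjusted p = 0.579), and whether reads of a human allele were counted there is not stated.

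One Apoe4 library stood apart. A gene read once in 1 library and never in the others shows which library that was, since its mean is set by the library's size factor alone. Such genes numbered 117 in the Apoe4 library with a size factor of 0.96, and from 33 to 58 in the other 5 Apoe4 libraries, against 32 to 57 in the 4 Apoe3 libraries. Which numbered replicate it is cannot be read from the table. Neurons of the olfactory bulb and brain also express these immediate early genes. Of 10 markers of such neurons, 3 had means above 10 but no p-value in the authors' deposited table: Gad1, an enzyme that makes GABA, at a mean of 152, Slc17a7, a glutamate transporter, at 81.9, and Grin1, a glutamate receptor subunit, at 39.2. By default DESeq2 withholds a p-value where 1 library's count is far from the rest. The 10 markers summed to a mean of 14385, and none was at 0. The 7 with a test had 3 folds above 0 and 4 below, with a median of -0.00, and none passed. In the authors' deposited table Gad2 and Snap25 were at -0.04, Tbr1 at -0.01 and Eomes at -0.00. Above 0 were Camk2a at 0.14, Slc17a6 at 0.12 and Syt1 at 0.03. Which library's counts led to the 3 missing p-values is not given. Part of that list, such as Snap25, is also expressed by olfactory neurons. A p-value was withheld from 57 genes of the table whose means exceeded 10, Xist included, and 49 of these had folds above 0. No immediate early gene described here was among them. The part of that library in the folds below was not tested, and no fold could be given without it.

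**Figure D1:**
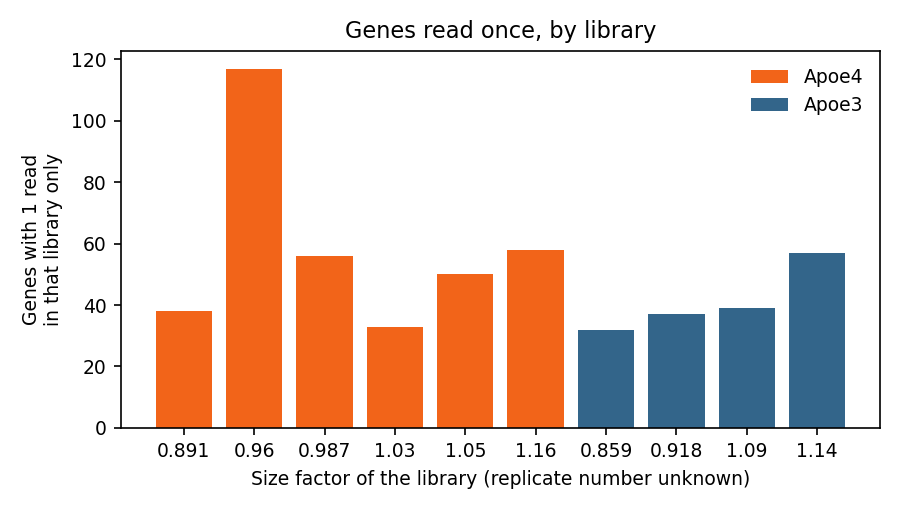
Genes read once in 1 library and in no other, per library, with the 6 Apoe4 libraries on the left and the 4 Apoe3 libraries on the right, each marked on the horizontal axis by its size factor. The Apoe4 library at 0.96 holds 117 such genes and the other 9 hold 32 to 58.

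Levels over all 10 libraries spanned a wide range. Per kilobase of the longest transcript, Ier2, a nuclear protein of unsettled function, was highest, with a mean normalized count per kb of 727, followed by Jun at 675 and by Dusp1, a phosphatase that switches off MAP kinases, at 550. Nr4a1, an orphan nuclear receptor, was at 346 and Junb at 295 per kb. These 5 were above the median of 126.0 per kb for tested genes. Fos stood at 113 per kb, Egr1, a zinc finger factor, at 58.5, and Arc, a protein of synapses that forms capsids carrying RNA, at 53.1. Fosb, at 11 per kb, and Npas4, a neuron-specific factor induced by calcium, at 4.09 per kb, were lowest. The spread of a level over libraries is not in the table, so neighbours in this order were not tested against each other.

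**Figure D2:**
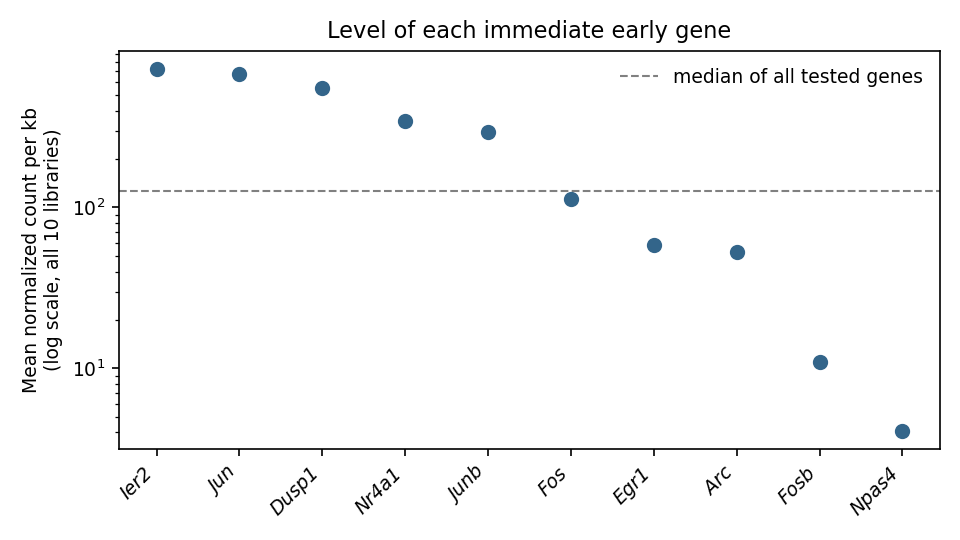
Mean normalized count per kb of longest transcript for each of the 10 genes, on a log scale, over all 10 libraries; the dashed line is the median of all tested genes (126.0). Ier2 is highest at 727 and Npas4 lowest at 4.09.

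The genes lie apart in the genome. On GRCm38 by RefSeq, Fos lies on chromosome 12 (85473890 to 85477274), Jun on chromosome 4 (95049036 to 95052222), Npas4 on chromosome 19 (4984353 to 5003439) and Dusp1 on chromosome 17 (26505591 to 26508472). Junb (84976909 to 84978748) and Ier2 (84661331 to 84662852) share chromosome 8, and Arc (74669081 to 74672570) and Nr4a1 (101253902 to 101274795) share chromosome 15. Egr1 lies on chromosome 18 (34861207 to 34864956). Fosb lies on chromosome 7 (19302696 to 19310118), 386.1 kb from mouse Apoe. These spans cover all RefSeq transcripts of a gene, so the promoter stretches of Fosb, Npas4 and Nr4a1 shown above, which precede 1 transcript's start, lie inside them. Jun, Junb and Ier2 each have 1 exon in their longest GENCODE transcript, and 7 of the 10 have a longest transcript shorter than the median of 3341 bases over tested genes. Ier2 is the shortest, at 1522 bases. There are 3 loci that overlap other annotated genes. Junb overlaps Prdx2 on the other strand, Jun overlaps Junos, and Dusp1 overlaps Ergic1 and 3 minor annotations. Whether the authors' counting used strand is not given in the sources used here, so part of those 3 counts could come from a partner.

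No immediate early gene differed between Apoe4 and Apoe3 past the threshold. Of the 10, none had a DESeq2 adjusted p under 0.05, against 0.779% of all genes tested, and their adjusted p ran from 0.196 for Arc to 0.988 for Dusp1. With an unadjusted p under 0.05 there were 3 of 10, Arc and Fos above 0 and Ier2 below, against 10.3% of all genes tested. Folds were above 0 for 6 genes and below 0 for 4, against 51.1% above 0 over all genes tested. The median log2 fold change was 0.08 over the members and 0.0026 over all genes tested. The 6 above 0 were Fos, Fosb, Egr1, Nr4a1, Npas4 and Arc, and the 4 below 0 were Jun, Junb, Ier2 and Dusp1, a division noticed after the values were seen.

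The deposited folds had been pulled towards 0 by a prior, most strongly where a gene's counts spread widely between libraries or are few. How strongly can be worked back from the standard error, but not to 1 answer. As a gene becomes less certain, its deposited error first rises to a ceiling of 0.105 and then falls, because the fold itself is pulled in. Each error below the ceiling therefore answers to 2 unshrunken folds, one with little spread between libraries and one with a wide spread, and the Wald statistic and p-value are the same for both. For Fosb and Npas4 the first would need less spread than read sampling alone gives, so only the wide one is possible. The other 8 are given both ways. The 2 answers need not be equally likely. For Xist the wide one would be a log2 fold change of 30.01, against 6.41 as deposited. For the sex-linked gene Eif2s3x it would be 8.22, against 0.58. Folds as deposited are given as log2 fold change ± standard error, and the spread as a coefficient of variation between libraries, beyond read sampling.

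**Figure D3:**
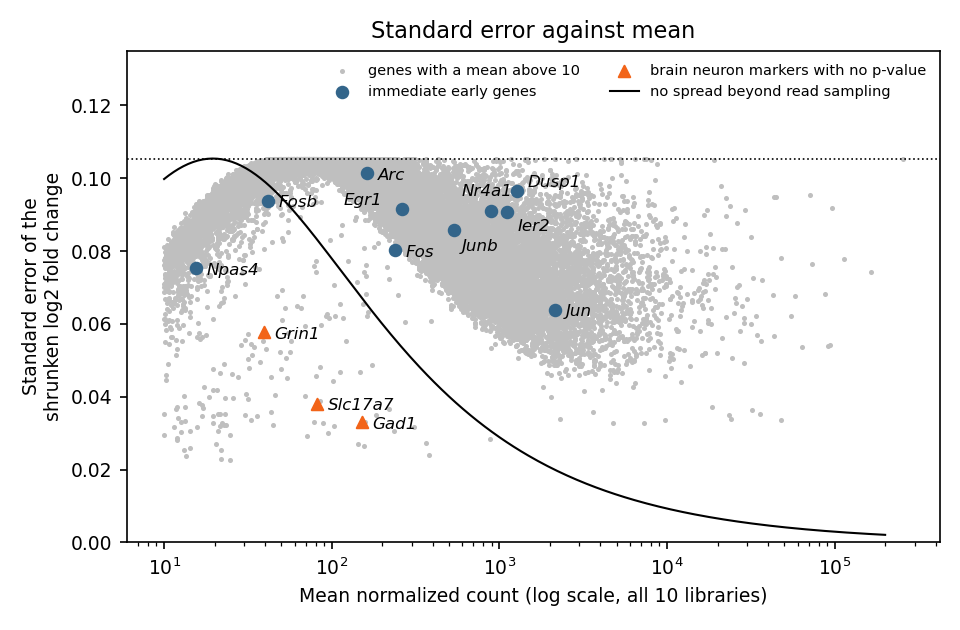
Standard error of the shrunken log2 fold change against mean normalized count (log scale), for all genes with a mean above 10 (grey), the immediate early genes (blue) and 3 brain neuron markers with no p-value (orange). The dotted line is the ceiling of 0.105 and the curve is the error of a gene with no spread beyond read sampling; Fos lies at the lower edge of the genes of its mean, and Gad1, Slc17a7 and Grin1 lie far below theirs.

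Fos, an AP-1 subunit, had a mean normalized count of 238 and a log2 fold change of 0.16 ± 0.0802 in the authors' deposited table (p = 0.0428, DESeq2 adjusted p = 0.472). Its error was lower than those of 398 of the 400 genes nearest to it in mean. With little spread (8.2%) the unshrunken log2 fold change would be 0.20 (95% interval 0.01 to 0.39), and with a wide spread (48.6%) it would be 0.93, or 1.9-fold, with a 95% interval of 0.03 to 1.82. These correspond to means of 251 in Apoe4 and 219 in Apoe3 for the first, and of 294 in Apoe4 and 155 in Apoe3 for the second. The error thus places Fos either among the least or among the most variable genes of its level, and the table does not say which.

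Fosb, its close relative, had a mean of 41.7 and a log2 fold change of 0.14 ± 0.0937 in the authors' deposited table (p = 0.122, DESeq2 adjusted p = 0.611). Unshrunken, the fold was 1.45, or 0.53 on the log2 scale (95% interval -0.14 to 1.21), and the spread 33.7%. The implied mean was 47.6 in Apoe4 and 32.9 in Apoe3. An interval that wide holds both no difference and a doubling of the level.

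Jun and Junb, the partners with which Fos proteins pair, were both near 0 as deposited. In the authors' deposited table Jun had a mean of 2151 and a log2 fold change of -0.03 ± 0.0638 (DESeq2 adjusted p = 0.916). The unshrunken 95% interval of Jun was -0.17 to 0.11 with a spread of 7.32%, and -1.50 to 0.95 with one of 67.1%. Junb had a mean of 534 and stood at -0.08 ± 0.0857 in the authors' deposited table (DESeq2 adjusted p = 0.801), or unshrunken at -0.10 (interval -0.31 to 0.11) or -0.38 (interval -1.18 to 0.42). Its antisense neighbour Prdx2 stood at -0.13 with a mean of 3905 in the authors' deposited table (DESeq2 adjusted p = 0.615).

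Among the other transcription factors, Egr1 had a mean of 263 and a log2 fold change of 0.15 ± 0.0915 in the authors' deposited table (p = 0.103, DESeq2 adjusted p = 0.583). Undoing the shrinkage gave 0.20 (95% interval -0.04 to 0.44) or 0.59 (interval -0.12 to 1.30). Nr4a1 had a mean of 885 and stood at 0.07 ± 0.0911 in the authors' deposited table (DESeq2 adjusted p = 0.837), unshrunken at 0.10 (interval -0.14 to 0.33) or 0.29 (interval -0.43 to 1.01). Npas4 had a mean of 15.5, close to the mean of 10 under which genes were not tested, and stood at 0.09 ± 0.0753 in the authors' deposited table (DESeq2 adjusted p = 0.727). Its unshrunken log2 fold change was 0.59 (95% interval -0.40 to 1.57) with a spread of 47.5%, or a mean of 17.9 in Apoe4 and 11.9 in Apoe3. With the wide spread, the intervals of Egr1, Nr4a1 and Npas4 all held 0 and reached past a doubling of the level.

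Arc had the smallest p of the 10. Its mean was 162, and Apoe4 over Apoe3 stood at 0.30 ± 0.101 in the authors' deposited table (p = 0.00345, DESeq2 adjusted p = 0.196). The unshrunken log2 fold change was 0.46 (95% interval 0.15 to 0.78) with a spread of 15.1%, or 0.82 (interval 0.27 to 1.37) with one of 29%. The first gives means of 182 in Apoe4 and 132 in Apoe3, the second 196 in Apoe4 and 111 in Apoe3. Arc is abundant in neurons of the olfactory bulb and brain, and the library with the extra genes described above is an Apoe4 library; its part in the value of Arc was not tested.

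Ier2 was the gene furthest below 0. It had a mean of 1106 and a log2 fold change of -0.18 ± 0.0906 in the authors' deposited table (p = 0.045, DESeq2 adjusted p = 0.476). Unshrunken this was -0.24 (95% interval -0.48 to -0.01) or -0.74 (interval -1.47 to -0.02), with means of 1031 in Apoe4 and 1218 in Apoe3 or of 871 in Apoe4 and 1458 in Apoe3. Shorter transcripts tended to have lower folds (Spearman rho = 0.415 between Wald statistic and transcript length, across genes, which are not independent replicates). With that trend removed, the log2 fold change of Ier2 was -0.12 and its unadjusted p 0.197. For Junb the value without the trend was -0.03, against -0.08 as deposited. For Fos it was 0.20 with an unadjusted p of 0.0126, against 0.0428 as deposited, and Arc stayed at 0.30. None of the 10 passed after adjustment, and the lowest adjusted p was 0.197, for Arc. Dusp1, at a mean of 1271, had a log2 fold change of -0.01 ± 0.0965 in the authors' deposited table (DESeq2 adjusted p = 0.988). Its error was higher than those of 388 of the 400 genes nearest in mean, and the unshrunken 95% interval was -0.28 to 0.26 or -0.66 to 0.61.

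**Figure D4:**
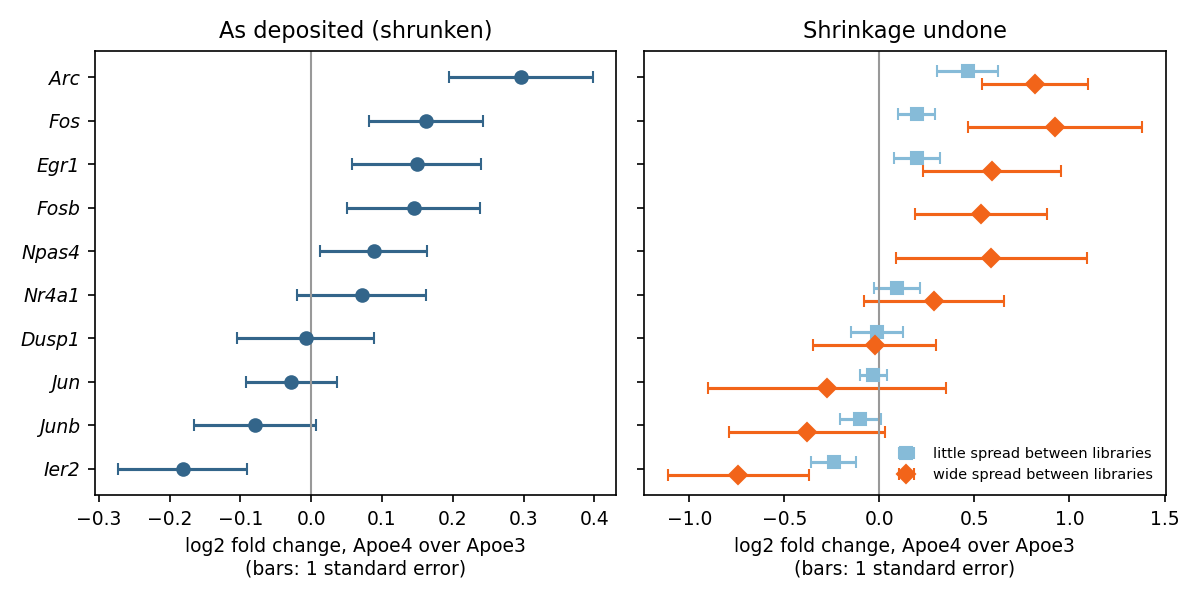
Log2 fold change of Apoe4 over Apoe3 for each gene, as deposited on the left and with the shrinkage undone on the right, where squares assume little spread and diamonds a wide spread between libraries; bars are 1 standard error and Fosb and Npas4 have only the wide answer. Arc is highest as deposited at 0.30 and Ier2 lowest at -0.18.

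Among other genes of the immediate early class, 1 passed the test. Of 53 tested in a list of 56, 1 was higher in Apoe4 and none lower, against 0.324% higher and 0.455% lower over all genes tested. In this list 37 had folds above 0 and 16 below, against 51.1% above 0 over all genes tested. The median log2 fold change was 0.05, and 6 had an unadjusted p under 0.05, against 10.3% of all genes tested. The gene that rose was Sik1, a kinase induced by cyclic AMP that restrains CREB coactivators, with a log2 fold change of 0.37 in the authors' deposited table (DESeq2 adjusted p = 0.0186). Once the length trend was taken out, its adjusted p was 0.0658, over the threshold of 0.05. Gem, a small GTPase, was at 0.33 in the authors' deposited table (DESeq2 adjusted p = 0.0841), and passed with the trend removed (adjusted p = 0.0223). Arf4, a GTPase of the Golgi, was at -0.14 in the authors' deposited table (DESeq2 adjusted p = 0.305). Nr4a3, a relative of Nr4a1 picked after its value was seen, was at 0.16 ± 0.0681 in the authors' deposited table (DESeq2 adjusted p = 0.353). Like Fos, Nr4a3 had an error below those of nearly all genes of its mean, with 6 of the 400 nearest lower.

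The partners of these proteins gave no gene past the threshold. Over all genes tested 0.779% passed, 10.3% had an unadjusted p under 0.05 and 51.1% had a fold above 0. Of 12 tested bZIP factors that pair with Fos or Jun proteins none passed the DESeq2 test in either direction, and 1 had an unadjusted p under 0.05. Fosl2, a Fos relative, was at 0.21, Atf3, a stress-induced factor, at 0.17 and Mafk, a small Maf protein, at 0.15 in the authors' deposited table (DESeq2 adjusted p = 0.314, 0.574 and 0.576). All 5 genes of the Egr and Nab list had folds above 0, from 0.01 to 0.10, and by DESeq2 none passed, nor had an unadjusted p under 0.05. Among them Egr2 was at 0.10, and the Egr corepressors Nab1 and Nab2 at 0.06 and 0.05 in the authors' deposited table. Of 11 other dual specificity phosphatases none passed the DESeq2 test and 1 had an unadjusted p under 0.05. That was Dusp5, a nuclear phosphatase of ERK, at -0.23 in the authors' deposited table (DESeq2 adjusted p = 0.377), beside Dusp2 at 0.10 and Dusp10 at 0.08.

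Upstream, no mRNA of the routes that drive these promoters passed the threshold. Only mRNA was measured, so whether the routes differed in activity was not tested. The shares over all genes tested were 0.779% passing, 10.3% at an unadjusted p under 0.05 and 51.1% with a fold above 0. In the list of serum response factor, its cofactors and some of its targets, 9 of 10 folds were above 0, with a median of 0.09. None passed the DESeq2 test and 1 had an unadjusted p under 0.05. Srf itself was at 0.16 in the authors' deposited table (DESeq2 adjusted p = 0.404), its target Vcl at 0.12 and Elk3, a cofactor, at 0.16. The cofactor Elk1, at -0.03, was the gene below 0. Acta2, Actb and Tagln, at 0.06, 0.10 and 0.07, are targets like Vcl and do not lie upstream of these promoters. Of 28 genes of the CREB and MEF2 route, 22 were above 0 with a median of 0.05, none passed the DESeq2 test and 1 had an unadjusted p under 0.05. Creb1 was at 0.20 in the authors' deposited table (DESeq2 adjusted p = 0.305), Crem, which codes for a repressor as well as activators, at 0.19 and Mef2a at 0.11. The 26 MAP kinase genes had 13 folds above 0 and a median of 0.00, with none past the DESeq2 test and 2 at an unadjusted p under 0.05. These were the p38 kinases Mapk11 at -0.15 and Mapk13 at -0.20 in the authors' deposited table (DESeq2 adjusted p = 0.351 and 0.456), and Mapk3, which codes for ERK1, stood at -0.13. Of 17 genes that act in AU-rich mRNA turnover, which sets the life of these transcripts, none passed the DESeq2 test or had an unadjusted p under 0.05. Hnrnpd was at 0.08, Btg2 at 0.10 and Elavl1 at 0.09 in the authors' deposited table.

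Genes that report olfactory activity or handling were also read. Of 14 tested genes regulated by activity in olfactory neurons, 1 was lower and none higher, against 0.455% lower and 0.324% higher over all genes tested. In this list 3 folds were above 0 and 11 below, against 51.1% above 0 over all genes tested, and the median was -0.05. The lower one was Pcdh10, an adhesion protein, at -0.36 in the authors' deposited table (DESeq2 adjusted p = 0.0473). Pcdh17 was at 0.21 and Sema7a, a membrane-bound axon guidance protein, at -0.11 in the authors' deposited table (DESeq2 adjusted p = 0.225 and 0.718). Heat shock genes that rise on tissue dissociation had 10 of 12 folds above 0, against 51.1% of all genes tested, and a median of 0.12. None passed the DESeq2 test. There were 4 at an unadjusted p under 0.05, against 10.3% of all genes tested for this and the next 2 lists. The chaperones Hsp90ab1, Hsp90aa1 and Hsph1 led this list by p, at 0.17, 0.21 and 0.22 in the authors' deposited table (DESeq2 adjusted p = 0.174, 0.201 and 0.389). Of 14 glucocorticoid-responsive genes none passed the DESeq2 test and 4 had an unadjusted p under 0.05, with Klf9 at 0.20 and the metallothioneins Mt2 and Mt1 at -0.16 and -0.20 in the authors' deposited table. Of 18 clock genes none passed the DESeq2 test and 2 had an unadjusted p under 0.05, with Clock at 0.19, Nr1d1 at -0.14 and Ciart at -0.16 in the authors' deposited table. Folds were above 0 for 7 of the 14 glucocorticoid-responsive genes and for 7 of the 18 clock genes. Whether handling, hour or stress moved with the immediate early genes was not tested.

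**Figure D5:**
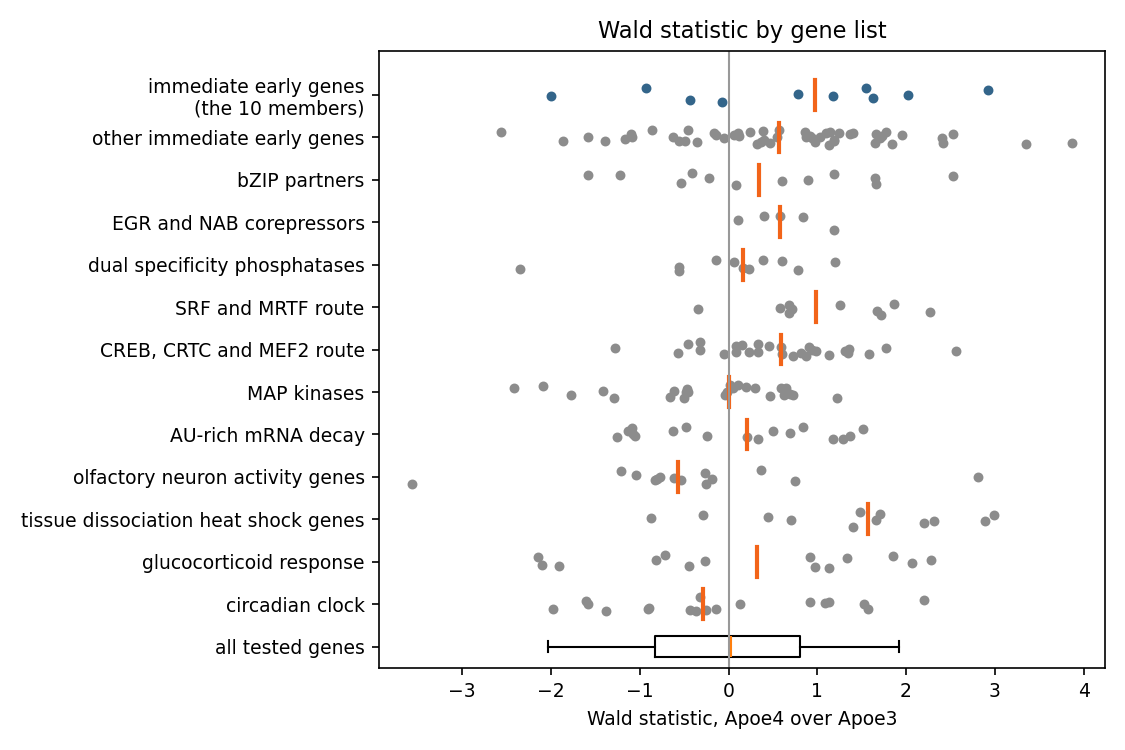
Wald statistic of Apoe4 over Apoe3 for the tested genes of each list, with points for genes, orange bars for medians and, at the bottom, a box of all tested genes (quartiles, whiskers at the 5th and 95th percentiles). Among the 10 immediate early genes Ier2 is lowest and Arc, at 2.92, highest.

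Among markers of the cells in the tissue, sex-linked genes aside, 8 passed the test, 4 of them erythroid. Over all genes tested 0.779% passed, 0.324% higher and 0.455% lower in Apoe4, and 51.1% of folds were above 0. All 4 erythroid markers with a test were lower, led by Alas2 at -0.46 in the authors' deposited table (DESeq2 adjusted p = 0.00337), and the 4 globin genes were listed at 0. Among the others, Slc4a1 was at -0.27 and Car1 at -0.25 in the authors' deposited table (DESeq2 adjusted p = 0.00509 and 0.0171). With the length trend removed Car1 was no longer called (adjusted p = 0.176). Of 8 sustentacular markers 1 was lower, Cbr2 at -0.26 in the authors' deposited table (DESeq2 adjusted p = 0.0421), and all 8 folds were below 0. Without the length trend the adjusted p of Cbr2 was 0.307, which ends the call. Of 8 gland markers 2 were higher, Bpifb4 at 0.34 and Bpifb1 at 0.43 in the authors' deposited table (DESeq2 adjusted p = 0.000282 and 0.0031). The gland list had 5 folds above 0 and 3 below with a median of 0.01, and Muc5b, a mucin, was at -0.18 in the authors' deposited table (DESeq2 adjusted p = 0.476). Of 8 immature neuron markers 1 was higher, Dpysl3 at 0.24 in the authors' deposited table (DESeq2 adjusted p = 0.0272), a call likewise lost without the length trend (adjusted p = 0.144). By DESeq2 none of 13 mature neuron, 9 basal, 7 respiratory, 7 glial, 9 macrophage, 7 endothelial and 6 fibroblast markers passed. At an unadjusted p under 0.05 these lists had 1, 0, 1, 1, 1, 0 and 0, against 10.3% of all genes tested. In the authors' deposited table the first gene of each of these lists other than the glial one stood at -0.06 (Omp), 0.14 (Krt5), 0.10 (Foxj1), -0.22 (Aif1), 0.03 (Pecam1) and 0.00 (Col1a1), and Gap43 and Cyp2g1 of the immature neuron and sustentacular lists at 0.11 and -0.12. In RNA of a whole tissue, fewer cells of a type and less RNA per cell cannot be told apart, and the part of these shifts in the values of the immediate early genes was not tested.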

How the data were processed

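Poly(A) libraries of olfactory epithelium RNA were sequenced on an Illumina instrument, per the labels' protocols. STAR, featureCounts, DESeq2 and GRCm38 are named in the submitters' processing notes, with no version; strandedness was not given in the sources used. Deposited by the authors, per the file headers, were a mean signal (normalized count over 10 libraries), a log2 fold change with its log2 standard error, a score (the Wald statistic) and p-values, with no values per library. The deposited p-values equal the normal p of the score within 2.8e-15. Adjusted values equal Benjamini-Hochberg values within 1.5e-14 over the 16050 genes not marked low (means under 10) and with a p-value.

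The direction of the folds was read from genes with 1 read in 1 library, whose means took 10 levels of at least 10 genes each, 6 with positive and 4 with negative folds. Negative were 1.52 times as large as positive ones, near the 1.5 that groups of 6 and 4 give. Positive is therefore higher in Apoe4. Levels also gave size factors and approximate depth, whose number limits precision. Shrinkage was undone from the error s = P√x/(1 + x), where P is the prior's standard deviation (0.211, 2 times the ceiling) and x the gene's information. For single-read genes at a dispersion of 10 this formula gives 0.0106, and 0.0107 to 0.0108 was deposited. Scripts were tested on simulated data. Neighbours in mean were the nearest 400 genes with a mean above 10.

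Calls are the authors' DESeq2 tests at an adjusted p under 0.05, since a count test on libraries, the first choice, could not be run. To remove the length trend, a lowess curve was subtracted (fraction 0.3, statsmodels 0.14.6, Python 3.11.15), fitted to the Wald statistic against the longest GENCODE vM21 transcript, found for 99.5% of tested genes. Alternatives were other filters on the mean, thresholds, a null fold of 1.2, autosomes only, the length trend and the shrinkage. Named genes were the members, in each pathway list those past the threshold and the 3 with the smallest p, and in marker lists the first gene and those past it. Some genes this rule names are not reported here. The members and lists were chosen with earlier results of these data known. Nothing in the labels tells whether replicates came from separate litters or days, and p-values measure the spread between these libraries.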

Additional observations from a re-analysis of the deposited data

Results flagged for a closer look

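One Apoe4 library held 117 genes read once there and nowhere else, set apart because its gap to the next of the 6 Apoe4 libraries (58) was 0.702 of their range, over the critical 0.625. In the 4 Apoe3 libraries the ratio was 0.72, under the critical 0.829. Chance marks about 1 in 20 such groups.

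Gad1, Slc17a7 and Grin1 carried signal outside the tested genes, with mean normalized counts of 152, 81.9 and 39.2 and no p-value in the authors' deposited table. Their log2 fold changes there were 0.03, 0.04 and 0.06, and with a wide spread the unshrunken values were 1.16, 1.07 and 0.78. Of the 400 genes nearest in mean, 2, 2 and 6 had a lower standard error, as 2 did for Fos. For the 7 bulb and brain neuron markers with a test, that number ran from 4 for Gad2 to 394 for Camk2a.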

How the results depend on the processing

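No paired analysis was possible because the deposited table holds no values per library, and for the same reason leaving out a replicate, edgeR and other size factors were not run. The count of immediate early genes past the threshold was 0, with 3 at an unadjusted p under 0.05. It was also 0 under each of the 6 alternatives run. Filters were none on the mean, a mean of at least 50, and autosomes only. The others were an adjusted p under 0.10, a null fold of 1.2 and the length trend removed. The null fold of 1.2 can only raise a p-value, so it could add no call. The threshold of 0.10 lies under the lowest adjusted p of the members, 0.196. Neither setting is therefore a further check on the count of 0. Among the other immediate early genes, 1 passed and 6 had an unadjusted p under 0.05, against 0.779% and 10.3% of all genes tested. At an adjusted p under 0.10, 2 passed (Sik1 and Gem), and 0 against a fold of 1.2, both settings added after seeing the data. With the length trend removed 1 passed, and it was Gem in place of Sik1. The median log2 fold change of the members, 0.08, was 0.15 with the shrinkage undone and little spread where possible, and 0.41 with the wide spread. Dusp1 changed sign with the length trend removed, to 0.02 against -0.01 as deposited, both inside its error; the cause was not tested. The median spread of the members was 12.5% with little spread where possible, 39.5% with the wide spread, and 7.59% with the deposited error taken as unshrunken. The wide spread was added as an alternative after seeing the data. Depth limits Npas4 most, at a mean of 15.5.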
